A study of Mus musculus with 29 samples.

Results

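Mast cells were followed in mouse colon through 9 genes, 6 that encode the proteases of their granules (Mcpt1, Mcpt2, Mcpt4, Cma1, Cpa3 and Tpsb2) and 3 that encode receptors by which mast cells are recognised (Kit, Fcer1a and Ms4a2). The genes were taken by symbol from a table of read counts for 54532 genes, and each of the 9 was found under 1 identifier. Of the 9, 7 averaged 3 counts or more per mouse and were tested among 18616 genes. Fcer1a and Ms4a2 lay below that limit and are described by their counts.

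Colon segments of 29 mice were sequenced, in 6 models of colitis and 3 control groups. WT control (n = 3), DSS (n = 3), DNBS (n = 3) and anti-IL-10 (n = 4) mice were labelled Balb/C without a gene deletion. Rag2-/- control mice (n = 3) were labelled Balb/C, and TRUC mice (n = 4) carry deletions of both Tbx21 and Rag2 on that background, and mice without Rag2 lack mature T and B cells. Rag1-/- control (n = 3), TCT (n = 3) and anti-CD40 (n = 3) mice were labelled C57BL/6 Rag1-/-. DSS mice drank 3% dextran sodium sulfate for 5 days and were killed at day 10, and DNBS mice received 3 mg of dinitrobenzene sulfonic acid by the rectum. Anti-IL-10 mice received 750 µg of antibody, which the protocol describes as directed at the IL-10 receptor, and were killed after at most 4 weeks. TCT mice received 500000 naive CD4+ T cells and were killed after 6 to 8 weeks, and anti-CD40 mice received 50 µg of an agonist antibody and were killed after 7 days. TRUC mice develop colitis without treatment, and the control groups were untreated. The study's methods differ from these accounts in 3 models. They describe Il10-/- mice gavaged with microbiota in place of an antibody. There DSS went to C57BL/6 mice killed at day 7 or 8, and T cell recipients were killed after 4 to 6 weeks. The labels state no ages, and the identifier TRUC_8W of TRUC mouse 4 is not explained. The study's methods give ages for the T cell transfer alone, and each library is 1 mouse.

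Library totals lay between 10725564 and 14977094 counts. Transcripts of H2-Ea-ps, a class II gene that C57BL/6 mice do not express, went against several labels. They numbered at most 1 count per mouse in the WT control, DSS, DNBS, anti-IL-10 and TCT groups, and 784 to 3956 counts in the Rag1-/- control, Rag2-/- control, TRUC and anti-CD40 groups. The groups labelled Rag1-/- control and Rag2-/- control differed in 23 genes (0.124% of those tested, edgeR adjusted p under 0.05), whereas the former differed from WT control mice in 2038 genes (10.9%). The deposited protocol and a figure legend of the study name Rag2-/- recipients of T cells, whereas the study's methods name Rag1-/- mice. TCT values are therefore also given against WT control mice and anti-CD40 values also against Rag2-/- control mice. Both Rag-deficient control groups differ from TCT mice in H2-Ea-ps, and WT control mice carry no labelled deletion. No control group thus matches TCT in both, and colitis and these differences cannot be told apart there. Tbx21 counts were 26 to 52 in TRUC mice and 1 to 7 in Rag2-/- control mice, so counts over the whole gene do not check that deletion. Rag2 had 15 to 25 counts per mouse in the Rag2-/- control group, 57 to 94 in TRUC, 6 to 20 in the group labelled Rag1-/- control and 48 to 99 in anti-CD40, against 0 or 1 in the other 5 groups. Rag1 had 20 to 33 counts in TCT and at most 4 elsewhere. The 4 groups with more than 1 count of Rag2 are those with H2-Ea-ps counts. Neutrophil markers rose in all 6 models, with 4 of 4 genes past the threshold in each, where 3.95% (DNBS) to 27.2% (anti-IL-10) of all genes rose.

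Mast cells arise from bone marrow progenitors and mature in tissue under stem cell factor, the ligand of Kit. In rodents a mucosal form, which lies in the epithelium and lamina propria of the gut and expands in inflammation and worm infection, is known for the chymases encoded by Mcpt1 and Mcpt2. A connective tissue form, which lies in the submucosa, around vessels and in skin, is known for Mcpt4, Cma1, Cpa3 and the tryptase gene Tpsb2.

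The 4 chymase genes lie within 1 cluster on chromosome 14 (GRCm38, GENCODE M21), each with 5 exons. Cma1 (ENSMUSG00000022225) occupies 55941451 to 55944675 on the minus strand. Mcpt1 (ENSMUSG00000022227) and Mcpt2 (ENSMUSG00000022226) lie on the plus strand, at 56017971 to 56020384 and at 56042041 to 56044642, with Mcpt9 between them on the minus strand. Mcpt4 (ENSMUSG00000061068) lies at 56059629 to 56062313 on the minus strand. The other members lie elsewhere: Cpa3 at 20215620 to 20242181 on chromosome 3, Tpsb2 at 25366305 to 25369098 on chromosome 17, Kit at 75574916 to 75656722 on chromosome 5, Fcer1a at 173221284 to 173227214 on chromosome 1 and Ms4a2 at 11615523 to 11623719 on chromosome 19.

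The chymases are close relatives, so reads could be shared between them. Mcpt1 and Mcpt2 transcripts were 83.9% identical over 956 aligned bases, and Mcpt1 and Mcpt4 transcripts 86.8% identical over 968. Even so, no stretch of 50 bases of Mcpt1 or Mcpt2 occurred in another gene. Of Mcpt4, 5.48% of such stretches were shared with Cma2 or Mcpt9, and of Cma1 5.38% were shared with the predicted gene Gm48934. Cpa3, Tpsb2, Kit and Fcer1a shared none.

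The promoters of Mcpt1 and Mcpt4 are printed because their sequences are alike while Mcpt1 passed the threshold in 4 models and Mcpt4 in 1, and that of Cma1 because it was the chymase with the highest level. Each line gives the 250 bases before the RefSeq start of the gene (GRCm38.p6), 5′ to 3′ on the gene's own strand, and capitals mark GATAA or, read on the other strand, TTATC, the core of sites that GATA factors bind.
Mcpt1, chr14:56017714-56017963, plus strand: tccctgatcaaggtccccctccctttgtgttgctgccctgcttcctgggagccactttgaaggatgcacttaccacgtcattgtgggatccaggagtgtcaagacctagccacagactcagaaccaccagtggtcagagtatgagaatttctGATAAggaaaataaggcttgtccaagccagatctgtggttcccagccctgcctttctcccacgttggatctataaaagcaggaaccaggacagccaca
Mcpt4, chr14:56062311-56062560, minus strand: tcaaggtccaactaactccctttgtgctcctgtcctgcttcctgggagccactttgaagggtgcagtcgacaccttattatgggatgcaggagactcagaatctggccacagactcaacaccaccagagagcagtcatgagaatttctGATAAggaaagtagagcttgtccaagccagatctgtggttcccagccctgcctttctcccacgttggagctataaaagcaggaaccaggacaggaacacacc
Cma1, chr14:55944676-55944925, minus strand: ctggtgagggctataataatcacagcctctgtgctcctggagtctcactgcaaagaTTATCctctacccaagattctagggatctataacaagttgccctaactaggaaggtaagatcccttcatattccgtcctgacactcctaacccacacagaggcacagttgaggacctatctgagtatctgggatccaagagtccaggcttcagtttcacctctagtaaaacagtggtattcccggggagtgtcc
The Mcpt1 and Mcpt4 promoters were 88.3% identical (212 of 240 aligned bases), and their GATAA began 98 and 102 bases before the start. In Cma1 the TTATC began 194 bases before it. GATAA on either strand occurred in 6 of the 7 members with a promoter sequence, all but Kit, and in 23.0% of 27025 promoters of the same length. CATGTG, a core bound by MITF, the master factor of mast cells, occurred on either strand in 1 of the 7, Fcer1a, and in 12.2% of all promoters. No promoter of Mcpt2 or Tpsb2 was used here.

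In 6 of 6 models the mucosal chymase gene Mcpt2 was higher than in the model's own control (edgeR quasi-likelihood test, Benjamini-Hochberg adjusted p under 0.05), and it was the only tested member for which this held. The call in DNBS was lost in DESeq2 and when most single mice were left out. The other mucosal chymase gene, Mcpt1, passed the threshold in 4 models. The connective tissue proteases passed it in a single model each or in none: Mcpt4 rose in DSS, Tpsb2 rose in TCT against Rag1-/- control, and Cma1 and Cpa3 passed it in no model. Kit passed it in the other direction, in TRUC, anti-IL-10 and TCT. Being higher at an adjusted p under 0.05 in all 6 models was found for 200 genes, 1.07% of those tested.

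By model, 2 of the 7 tested members rose and 1 fell in TRUC, where 22.4% of all genes rose and 23.4% fell. In DSS 3 rose and 0 fell (17.7% and 16.3% of all genes), and edgeR on these 2 groups alone and DESeq2 each called 1 lower, Kit. In DNBS 1 rose and 0 fell (3.95% and 2.21%). Anti-IL-10 mice had 1 that rose and 1 that fell (27.2% and 26.1%), TCT mice 3 and 1 (16.1% and 14%) and anti-CD40 mice 2 and 0 (10.9% and 10.7%). Set against the alternative controls, 2 rose and 1 fell in TCT against WT control mice (16.9% and 13.8%), and 2 rose and 1 fell in anti-CD40 against Rag2-/- control mice (12.4% and 11.8%). Where 0 fell, the members at an unadjusted p under 0.05 were 0 in DSS, 0 in DNBS and 1 in anti-CD40, Kit, and DESeq2 called 0 lower in DNBS and 0 in anti-CD40.

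**Figure D1:**
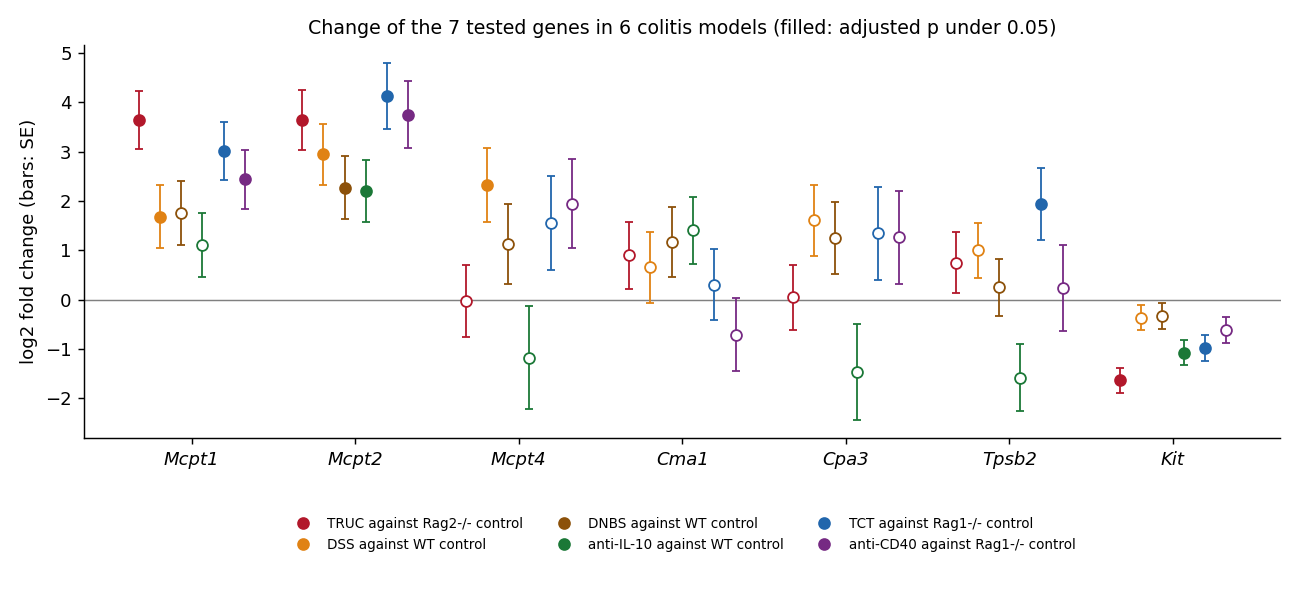
Log2 fold change of the 7 tested genes (vertical axis, with its SE as bars) in each colitis model against its own control, by edgeR. Filled points passed an adjusted p of 0.05. All 6 points of Mcpt2 are filled and above 0, and the points of Kit lie below 0.

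Mcpt1 encodes a chymase released across the gut epithelium and found in blood during worm infection. Control levels were low in every group, at 0.381, 0.4 and 0.574 CPM (counts scaled by TMM to a common library size) in WT control mice, 0.811, 0.368 and 0.688 in Rag1-/- control mice and 0.531, 0.230 and 0.680 in Rag2-/- control mice. The 3 control groups overlapped, and 3 to 10 counts lay behind each value.

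TRUC mice had 5.16, 4.8, 7.70 and 6.68 CPM of Mcpt1, each above every Rag2-/- control mouse. Their mean was 6.08 ± 1.35 CPM (SD, n = 4) against 0.480 ± 0.229 (n = 3), a log2 fold change of 3.64 ± 0.59 (SE), or 12.4-fold (edgeR adjusted p = 4.89e-05). In these bulk samples more mast cells and more RNA per mast cell cannot be told apart.

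TCT mice had 9.52, 1.11 and 4.54 CPM of Mcpt1, and anti-CD40 mice 3.01, 2.83 and 4.31. Neither group overlapped with a control group, although mouse 3 of TCT lay far below the others. Against Rag1-/- control mice the log2 fold change was 3.01 ± 0.59 in TCT (edgeR adjusted p = 0.000418) and 2.44 ± 0.60 in anti-CD40 (edgeR adjusted p = 0.00573). Without mouse 1 of TCT the former was 2.17, still past the threshold (edgeR adjusted p = 0.0066). Against the alternative controls the values were 3.47 ± 0.61 for TCT against WT control and 2.80 ± 0.62 for anti-CD40 against Rag2-/- control, both past it (edgeR adjusted p = 0.000253 and 0.00265).

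Mean Mcpt1 was lower in the 3 models set against WT control than in TRUC, TCT and anti-CD40, although mouse 3 of TCT lay among their values. DSS mice had 1.57, 0.752 and 2.08 CPM, DNBS mice 1.67, 0.388 and 2.56, and anti-IL-10 mice 1.10, 0.831, 1.03 and 0.941. All DSS and anti-IL-10 mice lay above the WT control mice, whereas mouse 14 of DNBS lay among them. On the log2 scale the change was 1.68 ± 0.64 in DSS (edgeR adjusted p = 0.0459), 1.75 ± 0.64 in DNBS (edgeR adjusted p = 0.0977) and 1.11 ± 0.65 in anti-IL-10 (edgeR adjusted p = 0.152). The DSS call was lost when any 1 of 5 mice was left out (WT control 1, 2 or 4, DSS 5 or 8, edgeR adjusted p between 0.0706 and 0.176) and under upper quartile scaling (0.0501). In anti-IL-10 edgeR on these 2 groups alone gave an adjusted p of 0.0195 at a log2 fold change of 1.09.

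Mcpt2 encodes the other chymase of mucosal mast cells. Control mice had at most 4 counts, with 0.305, 0.133 and 0.246 CPM in WT control mice, 0.243, 0.147 and 0 in Rag1-/- control mice and 0.177, 0.153 and 0.227 in Rag2-/- control mice. These levels lay near the 0.179 to 0.314 CPM that 3 counts make in these libraries, the most that a count of 0 allows.

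TRUC mice had 2.36, 1.87, 3.39 and 2.12 CPM of Mcpt2, TCT mice 3.58, 0.598 and 3.34, and anti-CD40 mice 2.25, 1.54 and 1.94. Every mouse of the 3 models lay above its controls, with mouse 3 of TCT again the lowest of its group. Since 7 counts in Rag2-/- control mice and 5 in Rag1-/- control mice stood against them, the ratios of summed counts are given with 95% intervals, which cover counting error only. The ratio was 13 in TRUC (116 counts, interval 6.10 to 33.0), 18.6 in TCT (84 counts, 7.65 to 58.7) and 14.3 in anti-CD40 (69 counts, 5.84 to 45.4). The edgeR adjusted p was 6.86e-05, 4.77e-05 and 0.000545, at log2 fold changes of 3.64 ± 0.62, 4.13 ± 0.67 and 3.75 ± 0.68. Without mouse 2 of the Rag1-/- control the last 2 became 4.83 and 4.43, both past the threshold (edgeR adjusted p = 0.000227 and 0.00165). Against the alternative controls the log2 fold change was 3.42 ± 0.61 in TCT and 3.29 ± 0.65 in anti-CD40 (edgeR adjusted p = 0.00027 and 0.00102).

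DSS mice had 1.51, 1.44 and 2.48 CPM of Mcpt2, DNBS mice 1.55, 0.310 and 1.45, and anti-IL-10 mice 0.843, 1.25, 1.03 and 1.15. The 4 anti-IL-10 mice were close together, and mouse 14 of DNBS, with 4 counts, stood barely above the highest WT control mouse, which also had 4. Mcpt2 changed by 2.95 ± 0.62 on the log2 scale in DSS, 7.70-fold (edgeR adjusted p = 0.0008), and 2.19 ± 0.63 in anti-IL-10, 4.57-fold (edgeR adjusted p = 0.00541). In DNBS it was 2.26 ± 0.64, 4.8-fold (edgeR adjusted p = 0.0372). That call was lost without any 1 of WT control 1, 2 or 4 or DNBS 11 or 16 (edgeR adjusted p between 0.0807 and 0.150), in edgeR on these 2 groups alone (0.102) and in DESeq2 (0.0723). Mcpt2 was higher without overlap in all 6 models, which held for 3.24% of all genes.

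**Figure D2:**
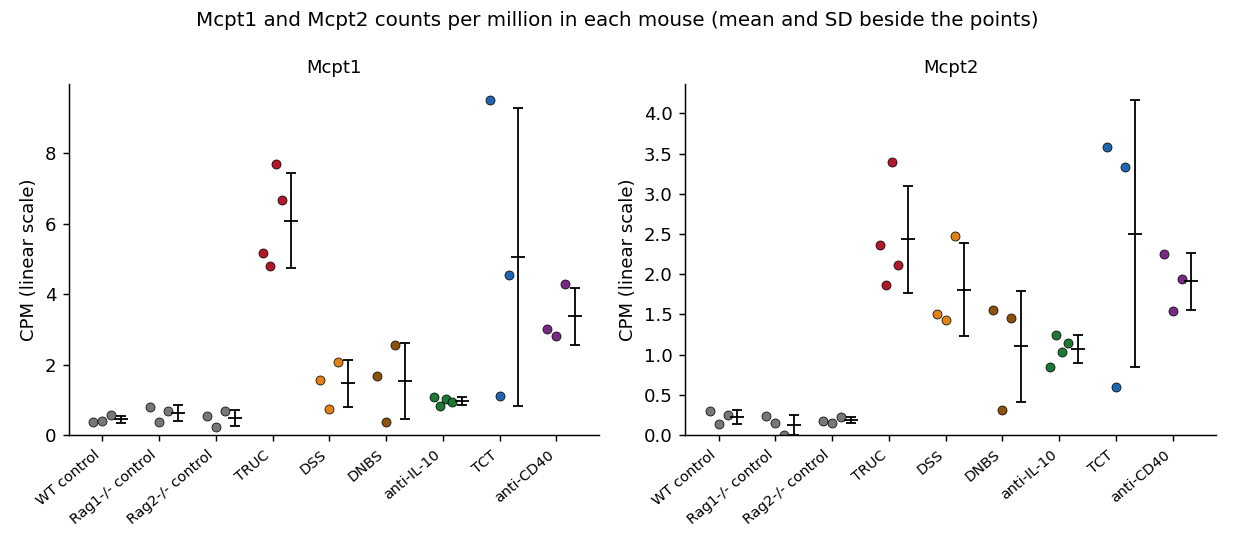
Mcpt1 (left) and Mcpt2 (right) in each of 29 mice, in CPM on a linear axis. Points are mice, coloured by model with controls in grey, and the bar beside them is the mean and SD of the group. Control mice lie at or below 0.811 CPM of Mcpt1 and 0.305 CPM of Mcpt2, and TRUC, TCT and anti-CD40 groups have the highest means of both.

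Over the 29 mice, log2 CPM of Mcpt1 and Mcpt2 correlated with r = 0.865, and with r = 0.783 after subtraction of the group means. These mice share controls and groups, and both genes were at few counts, so the correlation is a description. By order of mean level of Mcpt1, TCT overlapped with TRUC above it and with anti-CD40 below it, while TRUC lay wholly above anti-CD40. Anti-CD40 and DNBS did not overlap, and each next pair of DNBS, DSS and anti-IL-10 did. A difference in change between the 6 models did not pass the threshold for Mcpt1 or Mcpt2 (edgeR F test of equal contrasts, adjusted p = 0.181 and 0.350), although log2 fold changes ranged from 1.11 to 3.64 and from 2.19 to 4.13. It passed for Mcpt1 without mouse 3 of TCT (edgeR adjusted p = 0.0288) and with TCT set against WT control and anti-CD40 against Rag2-/- control (0.00269). Among all genes 60.5% passed it.

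Mcpt4 encodes the chymase of connective tissue mast cells in submucosa and skin. DSS mice had 1.01, 1.5 and 0.960 CPM against 0.152, 0.200 and 0.328 in WT control mice. The groups did not overlap, and the means were 1.16 ± 0.302 (SD, n = 3) and 0.227 ± 0.0909 (n = 3). This was a log2 fold change of 2.32 ± 0.74, 4.99-fold (edgeR adjusted p = 0.0182). Without WT control 1 or 2 or DSS 6 the adjusted p of edgeR was 0.0700, 0.0631 and 0.0528.

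In the other models Mcpt4 did not pass the threshold. TRUC mice had 0.664, 0.445, 0.183 and 0.326 CPM, within the range of 0.0885, 0.383 and 0.755 in Rag2-/- control mice, and the log2 fold change was -0.02 ± 0.73. Anti-IL-10 mice had 3, 0, 0 and 1 counts, a log2 fold change of -1.18 ± 1.04. Against Rag1-/- control mice the log2 fold change was 1.56 ± 0.95 in TCT and 1.94 ± 0.91 in anti-CD40 (edgeR adjusted p = 0.229 and 0.127), and against the alternative controls it was 0.85 ± 0.86 and 0.36 ± 0.75. In TRUC, where Mcpt1 rose 12.4-fold, Mcpt4 had 20 counts in 4 mice against 16 in 3. The change in Mcpt4 differed between models (edgeR F test of equal contrasts, adjusted p = 0.0125).

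Cpa3 encodes a carboxypeptidase that connective tissue mast cells store with Cma1. DSS mice had 0.818, 0.957 and 0.8 CPM, each above the WT control mice (0.305, 0.133 and 0.410), and the log2 fold change of 1.60 ± 0.71 did not pass the threshold (edgeR adjusted p = 0.0849). It did in edgeR on these 2 groups alone (adjusted p = 0.0376). Anti-IL-10 mice had 3, 0, 0 and 1 counts of Cpa3, the lowest mean of the 9 groups. The log2 fold change there was -1.47 ± 0.97 (edgeR adjusted p = 0.209). It was 0.05 ± 0.66 in TRUC, 1.35 ± 0.94 in TCT and 1.26 ± 0.94 in anti-CD40, the last 2 against Rag1-/- control mice with 1 or 2 counts each. Against Rag2-/- control mice it was negative in both, -0.58 ± 0.76 in TCT and -0.67 ± 0.76 in anti-CD40. The difference between models passed the threshold (edgeR F test of equal contrasts, adjusted p = 0.0347) and was lost without mouse 2, 3 or 4 of anti-IL-10 or mouse 6 of DSS, up to an adjusted p of 0.0975.

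Tpsb2 encodes a tryptase that forms tetramers with heparin in the granule. TCT mice had 0.699, 0.855 and 0.649 CPM against 0.243, 0.295 and 0 in Rag1-/- control mice, without overlap. Tpsb2 rose by 1.93 ± 0.74 on the log2 scale (25 counts against 7, edgeR adjusted p = 0.0493). This call was lost when any 1 of the 6 mice was left out (edgeR adjusted p between 0.0554 and 0.166) and under RLE size factors, upper quartile scaling, no count limit and DESeq2. Against WT control mice, which had 0.305, 0.932 and 0.738 CPM, the log2 fold change was 0.15 ± 0.60 (edgeR adjusted p = 0.877), and against Rag2-/- control mice it was 0.88 ± 0.65 (0.324).

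DSS mice had 1.01, 1.57 and 1.44 CPM of Tpsb2, above all WT control mice, at a log2 fold change of 1.00 ± 0.56 (edgeR adjusted p = 0.172). Anti-IL-10 mice had 0.0843, 0.416, 0.0858 and 0.314 CPM, and their log2 fold change of -1.59 ± 0.68 missed the threshold (edgeR adjusted p = 0.0520). It passed without WT control 1 or anti-IL-10 mouse 2 (edgeR adjusted p = 0.0299 and 0.0319), under upper quartile scaling (0.0347) and with the count filter of edgeR (0.0468). The change in Tpsb2 differed between models (edgeR F test of equal contrasts, adjusted p = 0.00758). DSS and anti-IL-10 mice share their controls, and their mean levels were 1.34 ± 0.296 and 0.225 ± 0.167 CPM (SD, n = 3 and n = 4).

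In DNBS, 1 mouse carried most of the counts of these 3 genes. Mouse 11 had 19 counts of Mcpt4, 26 of Cpa3 and 27 of Tpsb2, whereas mice 14 and 16 had 0 and 3, 3 and 1, and 6 and 2. The log2 fold changes against WT control were 1.12 ± 0.81, 1.25 ± 0.73 and 0.25 ± 0.58 with mouse 11 and -0.82, -0.73 and -1.02 without it, none past the threshold (edgeR adjusted p between 0.296 and 0.83 with mouse 11). The same mouse had 156 counts of Krt71, 189 of Calml3, 165 of Calm4 and 103 of Tmprss11b, genes of hair follicle, skin and other stratified epithelium. In the other 28 mice these genes had at most 20, 2, 1 and 1 counts. They were noticed among the genes most like Cpa3 within groups, with r between 0.695 and 0.732, and their part in the result was not tested.

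**Figure D3:**
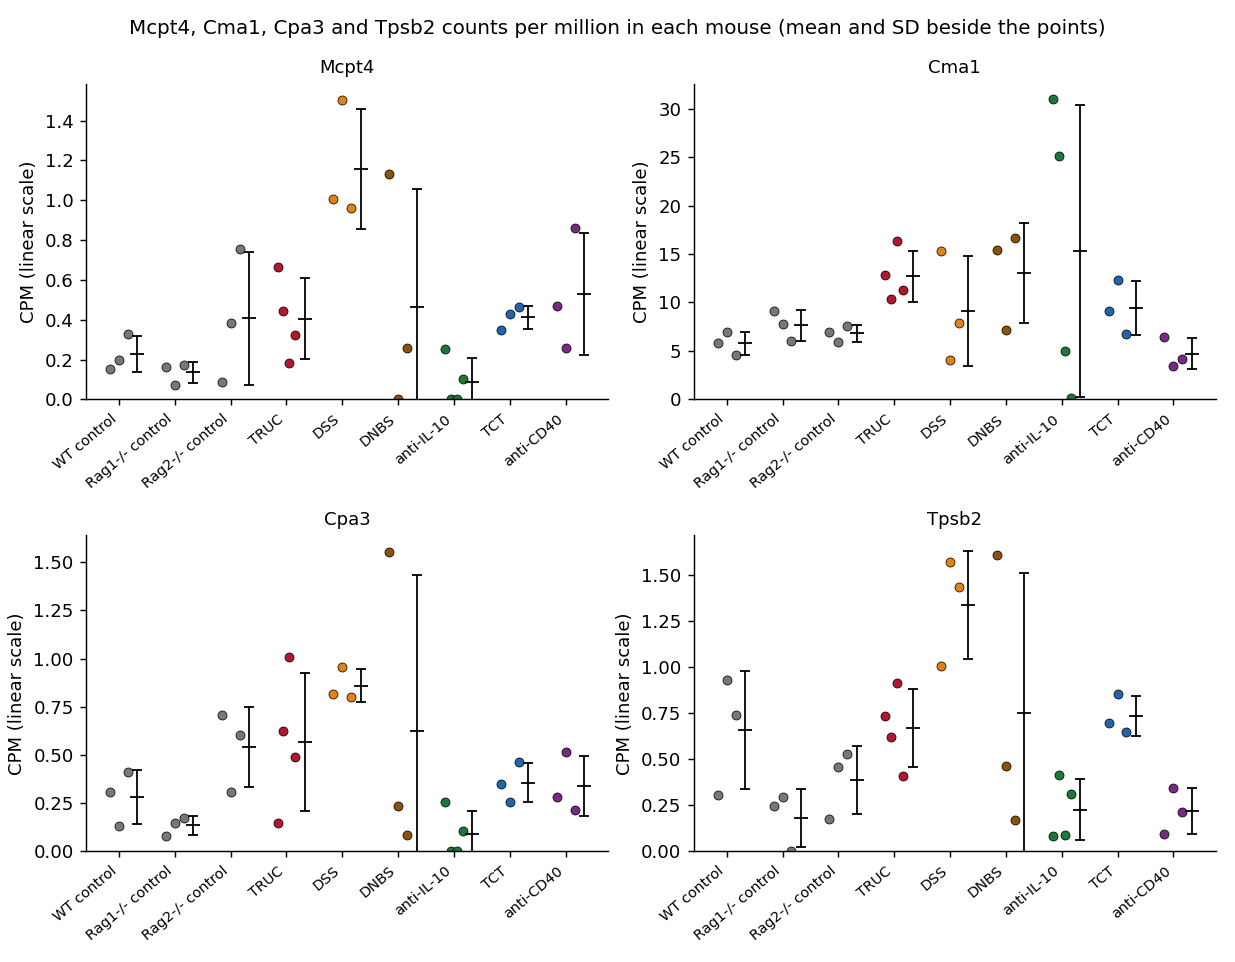
Mcpt4, Cma1, Cpa3 and Tpsb2 in each of 29 mice, in CPM on linear axes that differ between panels. Points are mice and the bar beside them is the mean and SD of the group, drawn only above 0. DSS has the highest mean of Mcpt4, Cpa3 and Tpsb2, mouse 11 of DNBS stands above the other 2 DNBS mice in those 3 panels, and Cma1 in anti-IL-10 runs from 0.105 to 31.0 CPM.

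Among the 6 member proteases Cma1, which encodes a chymase of connective tissue mast cells, had the highest level per length in each of the 9 groups, from 4.30 CPM per kilobase of exon in anti-CD40 mice to 14.1 in anti-IL-10 mice. Across all mice its median was 6.93 CPM per kilobase, against 1.08 for Mcpt1, 1.18 for Mcpt2, 0.294 for Mcpt4, 0.288 for Tpsb2 and 0.201 for Cpa3. Cpa3, whose product is stored with that of Cma1, thus had a lower level in the same libraries. Their log2 CPM correlated with r = 0.125 over 29 mice and -0.008 after subtraction of group means. Which cells made Cma1 in these bulk samples was not tested, so its level is not shown to be that of mast cells alone.

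TRUC mice had 12.8, 10.4, 16.3 and 11.2 CPM of Cma1, all above the 6.99, 5.89 and 7.55 of Rag2-/- control mice. Their log2 fold change of 0.90 ± 0.68 did not pass the threshold (edgeR adjusted p = 0.289). It did in edgeR on these 2 groups alone (adjusted p = 0.00132), where the spread of other groups does not enter, and in DESeq2 (2.76e-05). DNBS mice had 15.4, 7.13 and 16.6 CPM, above all WT control mice (5.87, 6.93 and 4.59), at 1.17 ± 0.72 (edgeR adjusted p = 0.323, DESeq2 adjusted p = 0.0103). DSS, TCT and anti-CD40 mice overlapped with their controls, with log2 fold changes of 0.65 ± 0.72, 0.30 ± 0.71 and -0.71 ± 0.74.

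The spread of Cma1 was largest in anti-IL-10 mice, at 31.0, 25.2, 4.98 and 0.105 CPM (368, 242, 58 and 1 counts). The log2 fold change was 1.40 ± 0.69 (edgeR adjusted p = 0.0885), and it passed without mouse 3 (1.70, edgeR adjusted p = 0.0433) or without mouse 4 (1.80, edgeR adjusted p = 0.0038). Mcpt2 in the same 4 mice was even, at 0.843 to 1.25 CPM. Hoxd13, a Hox gene of the hind end of the gut that was chosen after its values were seen, had 249, 276, 7.89 and 0.314 CPM in these mice and 117 to 413 CPM in the other 25. Across the 29 mice the genes most like Cma1 were Vegfc (r = 0.845), Apobec2 (0.801), 1700025G04Rik (0.790), Gm2981 (0.775) and Slc25a12 (0.770), and Hoxd13 had r = 0.715. After subtraction of group means the 5 most like were Apobec2 (0.937), Vtcn1 (0.932), Hoxd13 (0.920), Wfdc2 (0.915) and Lsr (0.911). No other member had r above 0.198 with Cma1. The part of Hoxd13, or of what moves with it, in the spread of Cma1 was not tested. The change in Cma1 did not pass the test of a difference between models (edgeR F test of equal contrasts, adjusted p = 0.426), and it passed without anti-IL-10 mouse 4 (edgeR adjusted p = 0.0377).

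**Figure D4:**
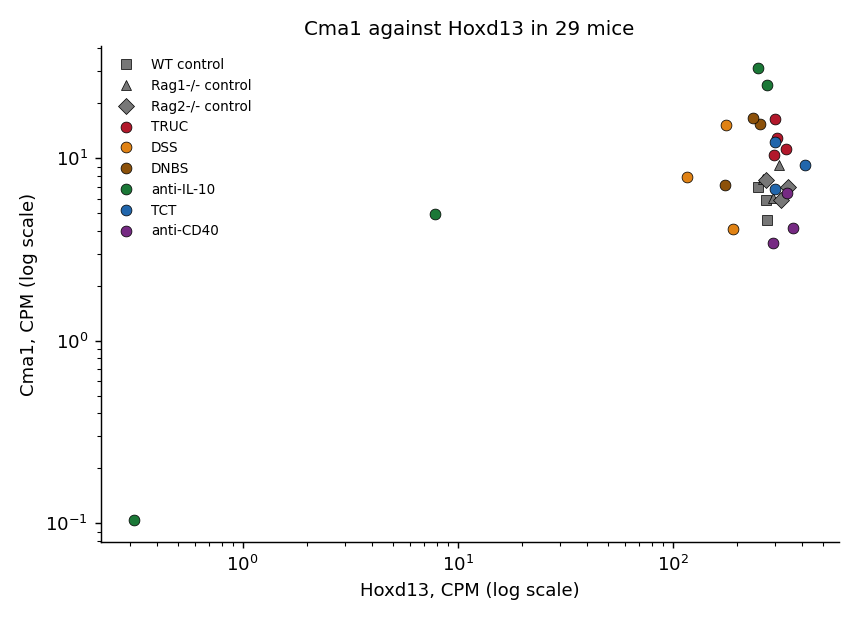
Cma1 (vertical) against Hoxd13 (horizontal) in 29 mice, both in CPM on log axes, with 1 point per mouse. Anti-IL-10 mice 3 and 4 lie apart to the left, at 7.89 and 0.314 CPM of Hoxd13, and among the other mice Cma1 runs from 3.43 to 31.0 CPM.

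The 2 mucosal chymases were set against the summed counts of Mcpt1, Mcpt2, Mcpt4, Cpa3 and Tpsb2, without Cma1. Their share was 25.0% to 68.4% in control mice and 35.2% to 96.0% in mice with colitis. The share was 79.8% to 87.8% in TRUC (406 of 484 counts over the group), 79.7% to 86.2% in anti-CD40 (194 of 234) and 76.7% to 96.0% in anti-IL-10 (87 of 104). It was lower in DSS, at 35.2% to 58.8% (138 of 282). Control mice had 29.6% to 47.4% in WT control (27 of 74), 50.0% to 68.4% in Rag1-/- control (28 of 45) and 25.0% to 42.1% in Rag2-/- control (25 of 76). TCT ran from 52.6% to 90.4% and DNBS from 42.9% to 88.7%, and TCT, DNBS and DSS overlapped with their controls. Of the counts of all 6 proteases, Cma1 made up 66.7% to 80.2% in WT control mice and 3.85% to 92.5% in anti-IL-10 mice. It made up 73.0% to 80.6% in Rag2-/- control mice and 52.9% to 58.6% in TRUC mice. Mouse 1 of anti-IL-10 had 23 counts of the 2 mucosal chymases among 398 of the 6 proteases. Shares compare genes without regard to length, and with few counts behind each mouse they are descriptions.

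Kit encodes the receptor tyrosine kinase for stem cell factor. It is needed by mast cells and also marks the interstitial cells of Cajal, the pacemaker cells of gut muscle, so its level in whole colon is not that of mast cells alone. TRUC mice had 19.9, 15.2, 13.7 and 16.5 CPM against 49.6, 51.2 and 52.1 in Rag2-/- control mice, with no overlap. Kit fell by 1.64 ± 0.25 on the log2 scale, 3.12-fold (edgeR adjusted p = 2.04e-05).

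Anti-IL-10 mice had 16.4, 16.7, 29.9 and 20.6 CPM of Kit against 43.1, 45.0 and 44.2 in WT control mice, a log2 fold change of -1.08 ± 0.25 (edgeR adjusted p = 0.000873). TCT mice had 27.1, 26.8 and 17.7 CPM, below the 60.4, 39.3 and 41.2 of Rag1-/- control mice, at -0.98 ± 0.27 (edgeR adjusted p = 0.00679). This TCT call was lost without Rag1-/- control 2 (edgeR adjusted p = 0.0522) or TCT 5 (0.0506). Against WT control mice it was -0.89 ± 0.26 (edgeR adjusted p = 0.0138), and without TCT 5 the adjusted p was 0.0776.

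Anti-CD40 mice had 24.0, 20.3 and 47.4 CPM of Kit, and mouse 8 lay within the controls. The log2 fold change was -0.62 ± 0.26 against Rag1-/- control (edgeR adjusted p = 0.0945), and without mouse 8 it was -1.08 (0.00363). Against Rag2-/- control it was -0.73 ± 0.26 (edgeR adjusted p = 0.0437), and 5 of the 6 fits that left out a mouse lost that call, up to 0.242. DSS mice had 32.3, 35.9 and 34.5 CPM, all below WT control, at -0.37 ± 0.26 (edgeR adjusted p = 0.290). DNBS mice had 33.0, 45.8 and 26.0 CPM, at -0.34 ± 0.26 (0.442). The change in Kit differed between models (edgeR F test of equal contrasts, adjusted p = 0.00767).

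Markers of the interstitial cells of Cajal moved with Kit in part. Ano1, their calcium-activated chloride channel, had a log2 fold change of -1.05 in TRUC, -1.06 in anti-IL-10 and -1.70 in DSS, all past the threshold (edgeR adjusted p = 0.0145, 0.0114 and 0.00129), and the call in anti-IL-10 was lost without WT control 4 (0.0539). Etv1, their transcription factor, fell in TRUC and anti-IL-10 (-1.24 and -1.37, edgeR adjusted p = 0.000669 and 0.00018), and in DSS it was at 0.66 (0.0637). Of the 4 genes in the list, Gja1 rose in TRUC, DSS and TCT and Prkcq in DSS and TCT. The summed level of the list was 326 to 409 CPM in WT control mice, 406 to 479 in Rag2-/- control mice, 225 to 312 in TRUC mice and 78.6 to 261 in anti-IL-10 mice. In DSS mice, where Kit was not called, it was 222 to 260 CPM. Ano1 alone was 260 to 355 CPM in WT control mice, 360 to 421 in Rag2-/- control mice and 148 to 238 in TRUC mice, so the sum there mostly follows Ano1. Smooth muscle genes fell as well, 2 of 5 in TRUC and 4 of 5 in anti-IL-10, where 23.4% and 26.1% of all genes fell. In TCT, where Kit also fell, 0 of the 4 Cajal markers (median log2 fold change 0.39) and 0 of the 5 smooth muscle genes fell against Rag1-/- control. Against WT control 1 and 2 fell. Of all genes 14% and 13.8% fell in these 2 comparisons. The part of the Cajal and smooth muscle genes in the lower Kit was not tested.

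**Figure D5:**
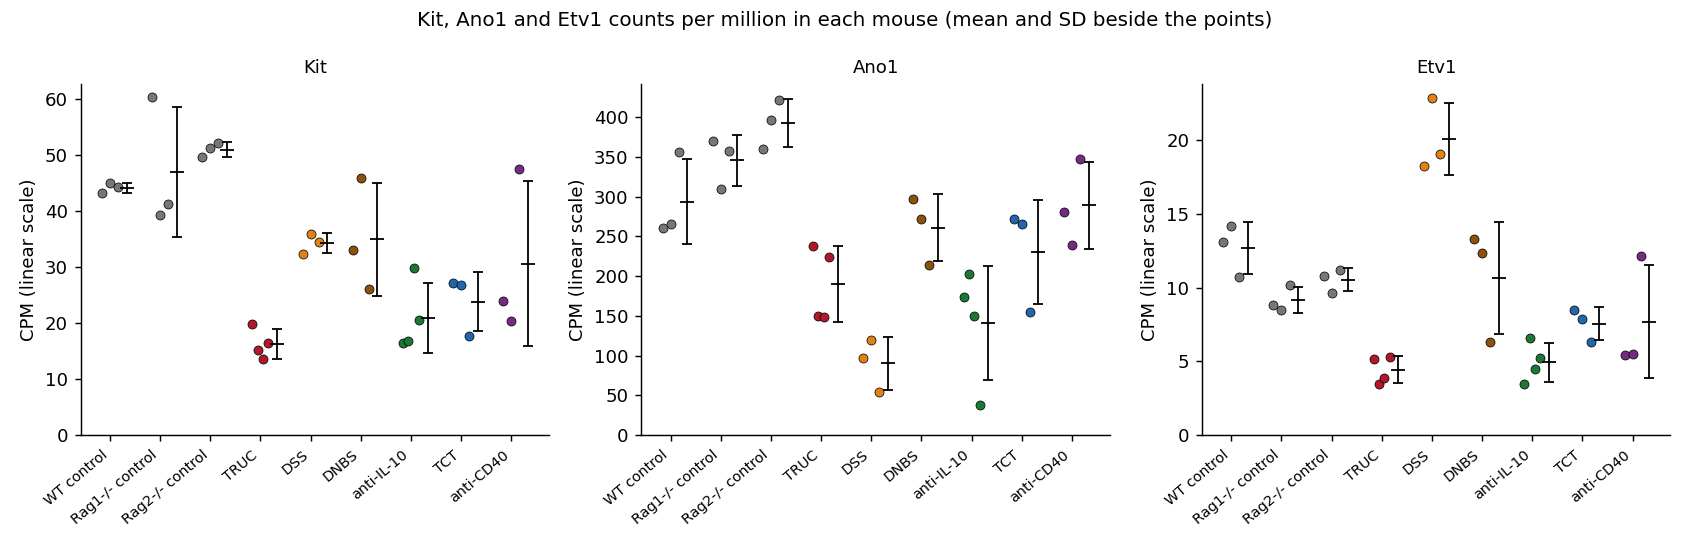
Kit, Ano1 and Etv1 in each of 29 mice, in CPM on linear axes that differ between panels. Points are mice and the bar beside them is the mean and SD of the group. TRUC and anti-IL-10 mice lie below their controls in all 3 panels, whereas DSS mice are low in Ano1 and the highest in Etv1.

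The alpha and beta chains of the high-affinity IgE receptor, Fcer1a and Ms4a2, were near the limit of detection. Fcer1a had 22 counts in 29 mice, with 0 in 17 mice and at most 3 in any mouse. DSS mice had 3, 3 and 2 counts, TRUC mice 3, 1, 1 and 0, and TCT mice 1, 2 and 1, whereas the 9 control mice had 0, 2 and 0, 1, 0 and 0, and 0, 0 and 0. Anti-IL-10 and anti-CD40 mice had none. Since 0 counts are compatible with 3 at this depth, Fcer1a was not detectable there and was not shown to be absent.

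Ms4a2 had 33 counts in all, with 0 in 14 mice. Its highest value was 9 counts in mouse 8 of DSS, and the other DSS mice had 1 and 2. TRUC mice had 2, 2, 1 and 1 counts and TCT mice 3, 2 and 1. The WT control and Rag1-/- control mice had none, Rag2-/- control mice 0, 1 and 2, anti-IL-10 mice none, DNBS mice 2, 0 and 1 and anti-CD40 mice 0, 0 and 3. With no count limit edgeR called Ms4a2 higher in DSS (adjusted p = 0.0203) and called neither gene in any other model.

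Rag2-/- control mice lack mature T and B cells and differ from WT control mice also in H2-Ea-ps, so that the lack of these cells and the background cannot be told apart. No member passed the threshold between these groups in either direction, where 3.25% of all genes rose and 4.86% fell. At an unadjusted p under 0.05 there were also 0 members by edgeR, and DESeq2 called 0. Log2 fold changes ran from -0.73 ± 0.65 for Tpsb2 to 0.93 ± 0.77 for Cpa3. Mcpt1 was at 0.09 ± 0.74 and Mcpt2 at -0.26 ± 0.83.

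Of 15 other mast cell genes, 11 passed the count limit. Hdc, which makes histamine, and Il1rl1, the receptor for IL-33, rose together in TRUC (log2 fold changes 4.6 and 4.06), DSS (8.19 and 5.20), anti-IL-10 (4.94 and 3.81) and TCT (3.69 and 5.10). The DSS mice differed widely, at 7.30, 22.7 and 260.0 CPM of Hdc and 18.1, 33.9 and 93.1 of Il1rl1. Without mouse 8 of DSS the changes were 5.50 and 4.31, both past the threshold (edgeR adjusted p = 8.84e-06 and 7.2e-05). In anti-CD40 neither passed the threshold (1.91 and 1.33), and in DNBS Il1rl1 rose (4.32) and Hdc did not pass (3.52). Which cells made Hdc and Il1rl1 in these bulk samples was not tested, so their rise is not that of mast cells alone. Fcer1g, the gamma chain that macrophages and neutrophils also use, rose in all 6 models. The counts of genes that rose and fell were 4 and 2 of 11 in TRUC, 6 and 1 in DSS, 2 and 1 in DNBS, 5 and 1 in anti-IL-10, 4 and 2 in TCT and 1 and 2 in anti-CD40. The median log2 fold change of the 11 was -0.24, 0.81, 0.29, 0.18, 0.42 and -0.03 in that order, against -0.03, 0.02, 0.01, -0.01, 0.00 and -0.03 over all genes. Apart from Gata2 and Tpsg1, described below, Hpgds fell in DNBS, anti-IL-10 and anti-CD40, Rab27b in DSS and TCT, and Cd63 in anti-CD40. In TCT against WT control mice Hpgds fell and Rab27b did not pass. The call of Fcer1g was lost in 5 of 6 fits that left out a mouse in DNBS and in 4 of 6 in anti-CD40 (edgeR adjusted p up to 0.165 and 0.106).

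Gata2, a transcription factor of the lineage, fell in TRUC (-0.99) and rose in DSS (0.85). Tpsg1, a tryptase with a membrane anchor, fell in TRUC (-0.87) and TCT (-0.84) and rose in anti-IL-10 (1.03), and in TCT against WT control mice it did not pass (-0.66, edgeR adjusted p = 0.104), whereas against Rag2-/- control mice it did (-1.21, 0.00396). Gata2 in DSS lost its call without any 1 of 5 mice (edgeR adjusted p between 0.0576 and 0.104), and Tpsg1 in TCT without any 1 of 4 (up to 0.231). Another 4 protease and receptor genes known from the connective tissue form were at or near 0, unlike Cma1. Tpsab1, another tryptase gene, had at most 7 counts in any mouse, Mrgprb1 at most 4, and Mrgprb2, the receptor for basic secretagogues, at most 3. Ctsg, cathepsin G, had at most 6.

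Basophils share Fcer1a, Ms4a2 and Cpa3 with mast cells. Their proteases Mcpt8 and Prss34 had at most 3 counts in any mouse, and of the 4 genes of the list only Il3ra rose, in all 6 models (in DNBS lost without WT control 1 or 2 or DNBS 14, edgeR adjusted p between 0.0509 and 0.0571), while Cd200r3 did not pass in any. The summed level of the list was 4.40 to 5.25 CPM in WT control mice and 7.36 to 22.6 CPM in mice with colitis. Il3ra is also made by other myeloid cells. Eosinophil markers rose in part, with 1 of 3 tested genes in TRUC, DSS, TCT and anti-CD40, 2 in anti-IL-10 and 0 in DNBS. Of all genes 22.4%, 17.7%, 16.1%, 10.9%, 27.2% and 3.95% rose in these models, in that order. The part of basophils and eosinophils in the members' values was not tested.

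Stem cell factor, encoded by Kitl, fell where Kit fell in TRUC and TCT and also in anti-CD40, with log2 fold changes of -0.79, -0.59 and -0.55 against the own control (edgeR adjusted p = 0.000123, 0.00503 and 0.0130). They were lost in TCT against WT control and in anti-CD40 against Rag2-/- control (-0.39 and -0.37, edgeR adjusted p = 0.0554 and 0.0760), whereas TCT against Rag2-/- control passed (-0.41, 0.0417). In anti-IL-10, where Kit also fell, Kitl was at -0.23 (edgeR adjusted p = 0.176), and without anti-IL-10 mouse 4 it was at -0.45 and passed (0.00202). The anti-CD40 call of Kitl was lost without Rag1-/- control 2 or anti-CD40 7 (0.0545 and 0.0854). Il33, an alarmin that acts on mast cells through Il1rl1, rose in DSS (2.05, at 19.3, 36.0 and 106 CPM) and fell in TCT and anti-CD40 (-1.63 and -2.73), and in TCT against WT control mice it did not pass (-1.28, edgeR adjusted p = 0.0633), whereas against Rag2-/- control mice it did (-1.66, 0.0168). Without mouse 8 of DSS the rise of Il33 was 1.09 and did not pass (edgeR adjusted p = 0.0796), and in TCT the call was lost without Rag1-/- control 3, TCT 1 or TCT 3 (0.0749 to 0.0789). The integrin gene Itgb7 and its ligand Madcam1, which guide mast cell progenitors into the gut, rose together in TRUC (1.46 and 1.48), DSS (1.79 and 2.44), anti-IL-10 (2.31 and 1.95) and TCT (3.74 and 2.05). The change of Itgb7 was 1.08 without mouse 8 of DSS (edgeR adjusted p = 0.0466), and in TRUC its call was lost without Rag2-/- control 1 (0.0596). Itgb7 is also used by T cells, whose markers rose in 3 of 4 genes in DSS and in 4 of 4 in anti-IL-10 and TCT. TRUC mice lack mature T cells, yet 2 of the 4 genes, Cd3g and Trac, rose there. The list summed to 6.14 to 7.56 CPM in TRUC mice and 2.30 to 5.89 CPM in Rag2-/- control mice. In WT control mice it summed to at least 8.3 CPM. Which cells made these transcripts in TRUC mice was not tested. Il3 and Il9, growth factors for mucosal mast cells, had at most 1 count in any mouse.

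In the list of growth and recruitment signals 11 of 14 genes were tested, and the numbers that rose and fell were 4 and 1 in TRUC, 7 and 0 in DSS, 1 and 0 in DNBS, 5 and 2 in anti-IL-10, 6 and 2 in TCT and 2 and 2 in anti-CD40. Among all genes 22.4% rose and 23.4% fell in TRUC, 17.7% and 16.3% in DSS, and 3.95% and 2.21% in DNBS. The shares were 27.2% and 26.1% in anti-IL-10, 16.1% and 14% in TCT, and 10.9% and 10.7% in anti-CD40. Median log2 fold changes of the 11 tested genes were 0.18, 1.58, 0.24, 0.22, 2.05 and 0.12 in that order. Over all genes the medians were -0.03, 0.02, 0.01, -0.01, 0 and -0.03. Vcam1 rose in all models but DNBS, Tgfb1 in all but anti-CD40, and Itga4 in DSS and TCT. Il10 rose in DSS and anti-IL-10, Madcam1 also in anti-CD40, and Il9r in TCT against Rag1-/- control alone. Il4 and Tslp fell in anti-IL-10.

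In the chymase cluster, the granzyme genes Gzmb and Gzmc of cytotoxic lymphocytes lie beyond Mcpt4 at 56258838 to 56262260 and 56231441 to 56234656. Gzmb rose in all 6 models (log2 fold changes 3.11 to 6.91), and Gzmc in TRUC, DSS, TCT and anti-CD40 (3.66 to 4.50). Without mouse 16 of DNBS Gzmb was at 1.82 there (edgeR adjusted p = 0.279), and without mouse 8 of DSS Gzmc was at 2.31 (0.173), both calls lost. Over 29 mice Mcpt2 was the gene most like Mcpt1 and Gzmc the next (r = 0.828), and for Gzmc r was 0.106 after subtraction of group means. They were followed by Eomes (0.817), Rasgef1a (0.815) and Nab1 (0.815). The genes most like Mcpt2 were Ccl7 (0.885), Ltf (0.884), Gm12891 (0.881), Cxcl10 (0.874) and Ly6c1 (0.871), and within groups none of these had r above 0.485. Mcpt9, which shares 18.8% of its 50-base stretches with relatives, had 2 to 8 counts in TRUC mice, 1 to 4 in anti-CD40 mice and at most 1 in any control mouse.

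For the connective tissue genes the likeness was lower. Mcpt4 was most like Mtmr1 (r = 0.683), Pcdhb8 (0.655), Evi5 (0.654), Cpa3 (0.647) and Dscam (0.636). Cpa3 was most like Mtmr1 (0.675), Gm13372 (0.666), Cntn4 (0.660), Brms1l (0.660) and Gm15674 (0.653). Tpsb2 was most like Naalad2 (0.825), the macrophage mannose receptor gene Mrc1 (0.822), Chl1 (0.779), Gja1 (0.768) and Adgrd1 (0.767). Kit was most like Vezf1 (0.929), Ppp1r9a (0.924), Klhl21 (0.924), Smarca2 (0.921) and Calcoco1 (0.910), and its r with Mcpt1 was -0.663 over all mice and -0.125 within groups. All are correlations of log2 CPM over the same 29 libraries.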

How the data were processed

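RNA of colon segments from 29 mice was sequenced after selection of poly-A RNA (RIN above 7). The authors deposited raw counts per gene. The submitters' processing notes name Trimmomatic, HISAT2, HTSeq and GRCm38, and strand and annotation release are not given in the sources used here. The table also holds 92 spike-in rows, which total 0 counts. Symbols were found for 54409 of 54532 identifiers. Libraries held 10725564 to 14977094 counts (median 12287039), so that 3 counts, the most a count of 0 allows, are 0.179 to 0.314 CPM. The 33 pairs of mice of 1 group each differed by more than sampling noise (lowest chi-square over its degrees of freedom 3.42).

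Counts of the 18616 genes with a mean of at least 3 were scaled by TMM (factors 0.814 to 1.15) and fitted over all 9 groups with the quasi-likelihood test of edgeR 4.0.16 (R 4.3.3), with Benjamini-Hochberg adjustment and a threshold of 0.05. An adjusted p given with edgeR is from that test. Replicates are separate mice, and intervals of counts cover counting error only. A difference between models was tested as inequality of the 6 contrasts. Likeness is Pearson's r of log2 CPM (prior count 2), and the 5 genes with the highest r over 29 mice are named. Alternatives were RLE and upper quartile scaling, no count limit, filterByExpr, the 2 groups alone, DESeq2 1.42.0, a replicate block, other control groups and each mouse left out. The test was checked on simulated data. The members and lists were chosen with earlier results of these data known. Named genes are all members, the genes past the threshold with the largest changes in each list, and those needed to describe a list. Krt71, Calml3, Calm4, Tmprss11b and Hoxd13 were chosen after their values were seen. Sequences are from RefSeq, with promoters for 7 of the 9 members.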

Additional observations from a re-analysis of the deposited data

Results flagged for a closer look

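The change against the model's own control differed between the 6 models for 4 of the 7 tested members (edgeR F test of equal contrasts). Among all genes tested 60.5% passed the same test, so the count is near the share over all genes. The adjusted p was 0.0125 for Mcpt4, 0.0347 for Cpa3, 0.00758 for Tpsb2 and 0.00767 for Kit. Log2 fold changes ran from -1.18 in anti-IL-10 to 2.32 in DSS for Mcpt4, from -1.47 to 1.60 for Cpa3 and from -1.59 in anti-IL-10 to 1.93 in TCT for Tpsb2, and from -1.64 in TRUC to -0.34 in DNBS for Kit. The calls for Mcpt4, Tpsb2 and Kit held in each of 29 fits that left out a mouse, and that for Cpa3 was lost in 4 of them (adjusted p up to 0.0975). The upper end for Tpsb2 rests on the labelled Rag1-/- control, since TCT was at 0.15 against WT control and 0.88 against Rag2-/- control. With TCT set against WT control and anti-CD40 against Rag2-/- control, an alternative chosen after seeing the data, 5 members differed between models: these 4 (adjusted p 0.0164 for Mcpt4, 0.0262 for Cpa3, 0.0120 for Tpsb2 and 0.00339 for Kit) and Mcpt1 (0.00269). DSS, DNBS and anti-IL-10 share their controls, as do TCT and anti-CD40.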

How the results depend on the processing

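Among the tested members, 464 fits that left out a mouse kept the direction and the side of the threshold, 25 lost a call, 7 gained one and 15 turned the sign. Under the other alternatives the numbers were 335, 9, 12 and 7. Left-out mice turned the sign of changes that had not passed the threshold. Their log2 ranges were -0.46 to 0.73 (Mcpt4 in TRUC), -0.37 to 0.38 (Cpa3 in TRUC), -0.82 to 1.67 (Mcpt4 in DNBS), -0.73 to 1.72 (Cpa3 in DNBS), -1.02 to 0.68 (Tpsb2 in DNBS), -0.28 to 0.77 (Tpsb2 in anti-CD40), and, in Rag2-/- against WT control, -0.26 to 0.43 (Mcpt1) and -0.56 to 0.0038 (Mcpt2). Upper quartile scaling gave -0.064 for Cpa3 in TRUC. Against Rag2-/- control, TCT gave -0.022 for Mcpt4 and -0.58 for Cpa3, and anti-CD40 gave -0.67 for Cpa3 and -0.82 for Tpsb2. Il9r in TCT was -0.86 against WT control. With the labelled Rag1-/- control against WT control, Mcpt4 was -0.70 and Cpa3 -0.996. The cause of these changes was not tested.

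Counts of members called also moved. In TRUC 3 were higher in edgeR on the 2 groups alone and in DESeq2. In DSS 1 to 3 were higher without a mouse, and 1 was lower in edgeR on the 2 groups alone and in DESeq2. In DNBS 0 were higher in edgeR on the 2 groups alone and 0 to 1 without a mouse. In anti-IL-10 2 were higher in edgeR on the 2 groups alone and 1 to 2 without a mouse, while 2 were lower under upper quartile scaling and filterByExpr and 1 to 2 without a mouse. In TCT 0 to 1 were lower without a mouse. In anti-CD40 1 was lower against Rag2-/- control and 0 to 1 without a mouse. Upper quartile scaling moved the median of all genes in anti-IL-10 from -0.01 to -0.18 and the genes called from 5058 higher and 4858 lower to 3854 and 6187, and in TRUC from 4163 and 4361 to 3413 and 5251.

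Same-numbered mice did not deviate together (r between -0.0812 and 0.0738). The groups are small, so this gave no sign of pairing by number and cannot exclude it. The replicate block was fitted on the 2 groups alone. With it 3 members were higher and 1 lower in TRUC, 1 and 1 in anti-IL-10, and 0 and 0 in Rag2-/- against WT control. In TRUC the added member was Cma1 (edgeR adjusted p 0.0021), which edgeR on the 2 groups without the block also called (0.00132). Few counts limit Mcpt2, Mcpt4, Cpa3, Tpsb2, Fcer1a and Ms4a2.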
